A study of Mus musculus with 2 samples.

Results

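Interferon-stimulated genes are the genes that cells switch on when an interferon reaches them. The 9 described here were taken by gene symbol from the 32285 genes of the deposited tables, and all 9 were found. They are Ifitm3, Bst2, Ifi27, Ifi27l2a, Isg15, Ifit1, Ifit3, Oasl2 and Irf7. Their levels were followed across cell types of the mouse cortex and between a wild-type library and a library labelled as a knockout of Fam69c, a gene for a kinase-like protein of the endoplasmic reticulum. Transcripts of that gene were still counted there, as given below, and that library is called the knockout library by its label. Cortices of male mice aged 4 months were pooled by genotype, dissociated, stained with 7-AAD, a dye that enters dying cells, and sorted. The labels name 7 mice without saying whether that is the number per genotype. They give neither the strain nor the deleted part of the gene. There was 1 library per genotype, so no test between genotypes was possible, and genotype, pool and library cannot be told apart. All intervals below are exact 95% intervals and cover counting error only.

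Type I interferons bind the receptor Ifnar1 with Ifnar2 and type II interferon binds Ifngr1 with Ifngr2. The receptor kinases then activate transcription factors, which bind a DNA element named the interferon-stimulated response element. In brain, many cell types can respond, and endothelial cells and microglia are known to keep some of these genes on at rest. The members fall into 3 roles: small membrane proteins (Ifitm3, which keeps viruses from fusing with endosomes, Bst2, which tethers budding virions, and the hydrophobic proteins Ifi27 and Ifi27l2a), cytosolic antiviral proteins (Isg15, a ubiquitin-like modifier, Ifit1 and Ifit3, which belong to a family that binds foreign RNA, and Oasl2, of the oligoadenylate synthetase family), and Irf7, a transcription factor that amplifies interferon production.

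The core of the response element was searched in the RefSeq promoter windows of the members (GRCm38.p6, 250 bases before to 50 after the gene start) because several members were detected together in single cells, as described further on. The letters searched were GAAA, any 2 bases and GAAA, or TTTC, any 2 bases and TTTC on the other strand. Of the 9 members, 7 had a window and 5 of these held at least 1 match, against 3.44% of all 32851 windows. At least 2 matches were found in each of those 5 and in 0.225% of all windows. Among 40 other interferon-stimulated effectors with a window, 17 (42.5%) had a match. Matches of Bst2 overlapped each other, as did the 3 of Isg15. The windows of Irf7 and Oasl2 held no match. The following 4 windows, 2 of membrane proteins and 2 of cytosolic proteins, show where the matches lie. They are written 5′ to 3′ on the strand of the gene, with the matched bases in capitals.
Ifitm3, chr7:141010695-141010994, minus strand: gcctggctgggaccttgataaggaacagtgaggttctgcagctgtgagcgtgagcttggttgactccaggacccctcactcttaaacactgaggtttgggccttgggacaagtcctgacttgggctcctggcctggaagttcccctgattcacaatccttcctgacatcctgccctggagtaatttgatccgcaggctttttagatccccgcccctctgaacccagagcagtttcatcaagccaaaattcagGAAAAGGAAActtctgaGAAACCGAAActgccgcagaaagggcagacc
Bst2, chr8:71537423-71537722, minus strand: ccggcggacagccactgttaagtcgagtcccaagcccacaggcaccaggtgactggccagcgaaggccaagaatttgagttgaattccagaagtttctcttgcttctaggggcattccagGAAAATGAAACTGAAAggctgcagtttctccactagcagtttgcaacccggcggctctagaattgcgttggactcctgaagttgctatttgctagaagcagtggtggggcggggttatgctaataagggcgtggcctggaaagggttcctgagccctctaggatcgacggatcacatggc
Isg15, chr4:156200769-156201068, minus strand: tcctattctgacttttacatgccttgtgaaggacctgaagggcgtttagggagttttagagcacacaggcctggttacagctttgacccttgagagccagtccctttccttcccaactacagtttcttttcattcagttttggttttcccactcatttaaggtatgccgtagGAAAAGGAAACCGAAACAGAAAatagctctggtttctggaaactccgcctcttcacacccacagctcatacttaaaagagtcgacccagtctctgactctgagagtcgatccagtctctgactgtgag
Ifit1, chr19:34640639-34640938, plus strand: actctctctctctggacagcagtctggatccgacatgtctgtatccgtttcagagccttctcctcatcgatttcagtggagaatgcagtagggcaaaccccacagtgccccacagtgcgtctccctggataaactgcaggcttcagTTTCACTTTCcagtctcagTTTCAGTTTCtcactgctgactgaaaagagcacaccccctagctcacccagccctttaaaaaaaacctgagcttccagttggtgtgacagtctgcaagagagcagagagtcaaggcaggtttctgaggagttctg
A match of these letters is a description of the sequence and no evidence that a factor binds there.

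By GENCODE M21 (GRCm38/mm10), Ifitm3 (ENSMUSG00000025492) lies on chromosome 7 from 141009586 to 141010770 and Irf7 (ENSMUSG00000025498) on the same chromosome from 141262706 to 141266481, both on the minus strand. Ifi27 (ENSMUSG00000064215, 103434211 to 103440239, plus strand) and Ifi27l2a (ENSMUSG00000079017, 103442167 to 103443680, minus strand) are neighbours on chromosome 12. Ifit3 (ENSMUSG00000074896, 34583531 to 34588731) and Ifit1 (ENSMUSG00000034459, 34640871 to 34650009) lie on the plus strand of chromosome 19. Isg15 is ENSMUSG00000035692 on chromosome 4 (156199424 to 156200818, minus strand), Bst2 is ENSMUSG00000046718 on chromosome 8 (71534255 to 71537456, minus strand) and Oasl2 is ENSMUSG00000029561 on chromosome 5 (114896936 to 114912234, plus strand). All 9 are protein-coding, and Irf7 overlaps Phrf1 on the opposite strand. Of the stretches of 100 bases at the 3′ end of Ifit3, 4.24% also occur in its near-copy Ifit3b, so some of its reads could be assigned to either. The other 8 members shared no such stretch with another gene.

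The wild-type library held 7150 barcodes with 57166105 UMIs (unique molecular identifiers, each a captured transcript) and the knockout library 9182 with 75473717. After filters, 4857 and 6931 cells remained, with median depths of 8640 and 8388 UMIs. The libraries shared 17 barcodes, 10 of them among the kept cells. Cells were assigned to a type by their own marker genes, 10834 of 11788 cells received one, and the 10 types with at least 20 cells in each library are described. In each, the 10 genes with the highest fold included 2 to 8 of the type's own markers and at most 1 of another's. The members Isg15, Ifit1 and the others were not among the markers. The ungated cells differed in depth, with medians of 1454 UMIs in 576 wild-type cells and 6991 in 378 knockout cells. The targeted gene, listed as Dipk1c, had 56.9 CPM (54.0 to 59.9, 1440 UMIs) in wild-type and 32.9 CPM (31.1 to 34.8, 1186 UMIs) in knockout astrocyte-like cells, and the 3′ assay cannot say whether those transcripts were intact. Levels are given as CPM, the UMIs of a gene per 1000000 UMIs of that cell type and library. UMIs at 3′ ends do not scale with gene length.

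Each member had its own distribution over cell types. Ifitm3 and Ifi27l2a were highest in monocyte-like cells, Isg15, Ifit1 and Ifit3 in endothelial-like cells, Irf7 in monocyte-like cells, Oasl2 in neutrophil-like cells, and Ifi27 was spread over all 10 types. Among the 10 described types these leading types were the same in both libraries. The exception was Bst2, led by monocyte-like cells in the wild-type and by endothelial-like cells in the knockout library. Among astrocyte-like, oligodendrocyte-like and neuroblast-like cells the cytosolic members stood at no more than 27.6 CPM, and Ifit3 was the one counted in many astrocyte-like cells (144 and 190).

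**Figure D1:**
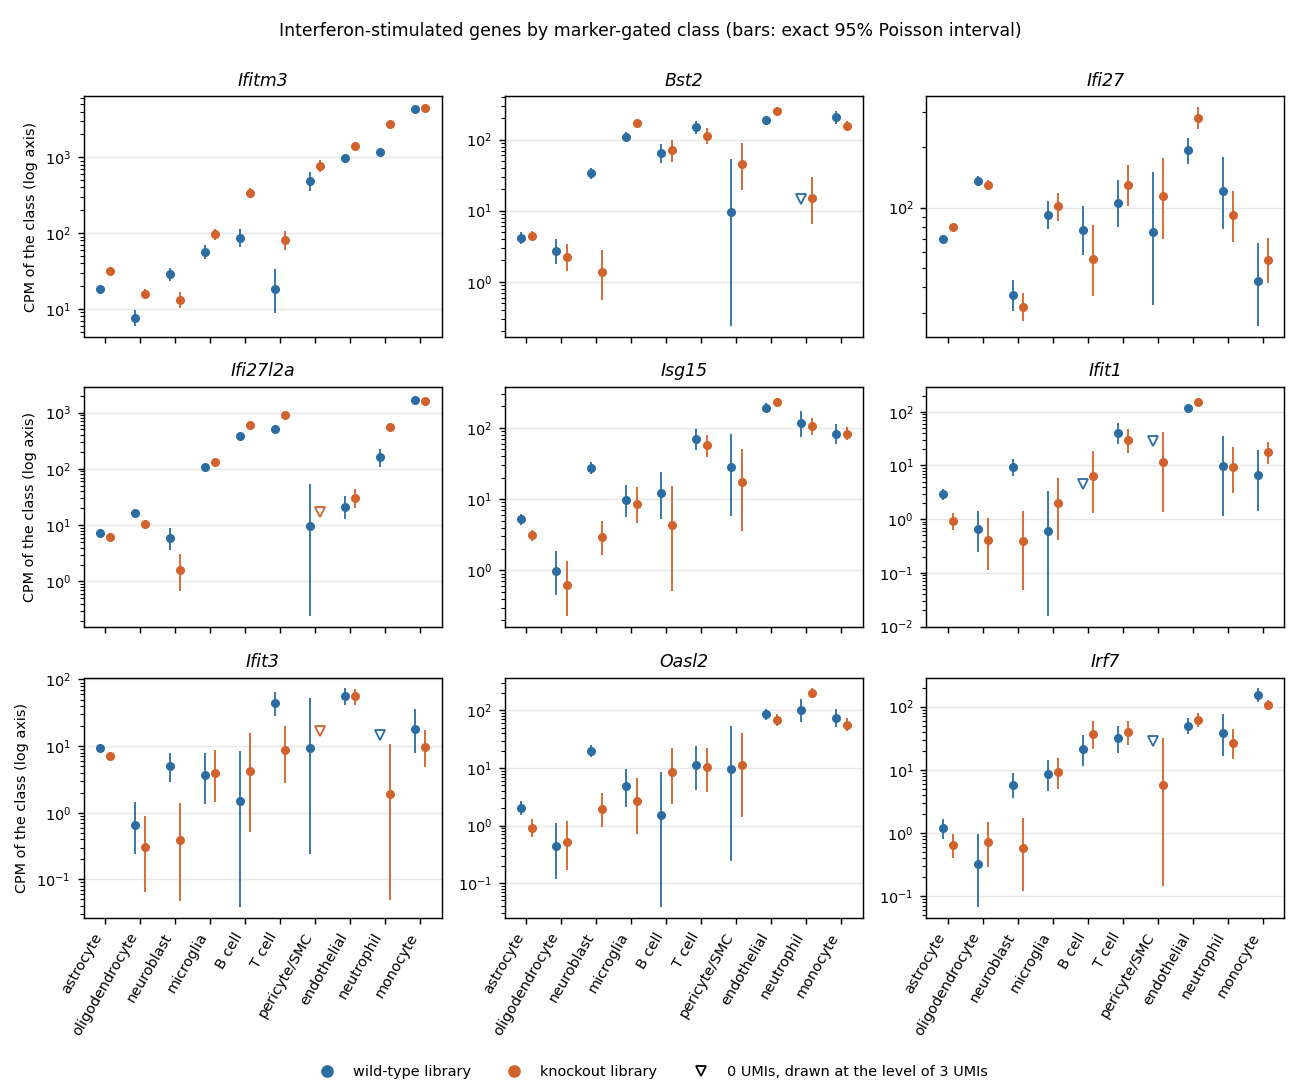
Level of each of the 9 members (CPM of the class, log axis) in 10 marker-gated cell types of the wild-type (blue) and knockout (orange) libraries, with exact 95% Poisson intervals and open triangles, at the level of 3 UMIs, where no UMI was counted. Wild-type Ifitm3 spans from 7.68 CPM in oligodendrocyte-like cells to 4351 in monocyte-like cells, while Ifi27 lies between 32.0 and 279.7 CPM in all types of both libraries.

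Ifitm3 varied widely between types. In the wild-type library it stood at 4351 CPM in monocyte-like cells (4159 to 4550), 1177 in neutrophil-like cells (1034 to 1334), 982 in endothelial-like cells (920 to 1048) and 484 in pericyte-like and smooth muscle-like cells (360 to 636). The intervals of neutrophil-like and endothelial-like cells overlapped in that library and did not in the knockout one. Every monocyte-like cell, 35 of 35 and 99 of 99, had at least 1 Ifitm3 UMI. With cells thinned to 2000 UMIs, the share with an Ifitm3 UMI was 69.0% in wild-type endothelial-like cells and 1.83% in wild-type neuroblast-like cells, which are neural precursors (unthinned, 74.1% at a median of 3216.5 UMIs and 7.63% at a median of 11808.5).

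In the knockout library, Ifitm3 was higher in 7 of 10 types by at least 1.5-fold, the size used throughout to name a difference. The pooled levels of astrocyte-like cells were 18.0 CPM (wild type) and 31.5 CPM (knockout), a ratio of 1.75 (1.56 to 1.95). Different clusters of cells with similar expression, built without the members, made up that class in the libraries: 6.60% of wild-type and 32.2% of knockout astrocyte-like cells lay in cluster 0, 5.07% and 17.3% in cluster 5, and 24.3% and 8.65% in cluster 4. Inside the 5 clusters where at least 50 Ifitm3 UMIs could be compared, the ratio ran from 0.839 to 3.10 and passed 1.5-fold upward in 2 and downward in 0. Those of oligodendrocyte-like cells were 7.68 and 15.8, a ratio of 2.06 (1.55 to 2.78). Neutrophil-like cells had 1177 and 2759 CPM, a ratio of 2.34 (2.05 to 2.70), from 28 and 88 cells. Microglia-like cells had 56.9 and 97.2 CPM. Monocyte-like cells stood at 4351 and 4418, and endothelial-like cells at 982 and 1417, a ratio of 1.44 (1.33 to 1.57). Neuroblast-like cells went the other way, with 28.4 CPM against 13.2 in knockout cells.

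The astrocyte-like and oligodendrocyte-like differences in Ifitm3 sat in few cells. The 165 wild-type and 84 knockout astrocyte-like cells outside the clusters named astrocyte held 166 and 562 of the UMIs, and inside those clusters the levels were 12.0 and 16.5 CPM, a ratio of 1.38 (1.19 to 1.59). In astrocyte-like cells, 56 of 2545 wild-type cells and 109 of 4208 knockout cells had at least 2 Ifitm3 UMIs and held 271 of 457 and 761 of 1136. In these cells the 10 neutrophil markers summed to 6071 and 8691 CPM, against 70.4 and 81.9 in the other astrocyte-like cells. Without the cells that held more than 3 UMIs of 18 neutrophil and monocyte markers (114 wild-type and 130 knockout cells), the levels were 12.7 and 16.5 CPM and the ratio 1.30 (1.13 to 1.497). In oligodendrocyte-like cells, 3 of 805 knockout cells carried 50% of the Ifitm3 UMIs, and without 40 and 32 such marker-bearing cells the levels were 5.58 and 5.09 CPM, a ratio of 0.911 (0.599 to 1.38). When every cell was weighted the same, the astrocyte-like ratio reversed (log2 −0.31, from 0.80), as did the oligodendrocyte-like one (−0.07, from 1.04). In microglia-like cells the ratio without marker-bearing cells was 2.32 (1.35 to 4.13), on 20 and 47 UMIs. The part of leukocyte RNA in what remained of the astrocyte-like difference was not tested.

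In lymphocyte-like cells, Ifitm3 rested on single cells. Of 47 knockout UMIs in T cell-like cells, 39 were in 1 cell, whose 8 monocyte markers summed to 6339 CPM against 1263 in the others. Of 158 knockout UMIs in B cell-like cells, 103 were in 1 cell. The 4 wild-type and 3 knockout B cell-like cells with at least 2 Ifitm3 UMIs had median depths of 19724 and 17061 UMIs against 5878 and 4099 in the rest, and monocyte markers at 3122 and 3340 CPM against 571 and 514. Under a stricter marker gate the log2 ratios were −0.56 in T cell-like and −0.50 in B cell-like cells, reversed from 2.13 and 1.96.

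Bst2 was found in monocyte-like, endothelial-like, T cell-like and microglia-like cells. Wild-type levels were 207, 188, 149.6 and 110.2 CPM in that order, and each interval overlapped that of its neighbour. Bst2 in microglia-like cells was 110.2 CPM in the wild type (94.7 to 128, 180 UMIs in 91 cells) and 171 in the knockout (151 to 193, 259 UMIs in 130 cells), a ratio of 1.55 (1.28 to 1.89). These UMIs were spread, with 7.50% and 9.67% of the cells holding 50% of them. The ratio was at least 1.5-fold in each of the 11 other settings tried, and 1.51 (1.19 to 1.93) without marker-bearing cells. The 8 monocyte markers in microglia-like cells summed to 211 and 331 CPM. In neuroblast-like cells Bst2 was 33.4 CPM in the wild-type library (114 UMIs in 16 of 236 cells) and 1.38 in the knockout library (7 UMIs in 440 cells), a ratio of 0.0412 (0.0162 to 0.0876). Astrocyte-like cells had 4.11 and 4.47 CPM.

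Ifi27 was the most widespread member, with a UMI in 41.0% of wild-type and 41.8% of knockout cells. It stood at 135 and 129 CPM in oligodendrocyte-like cells, 91.8 and 101 in microglia-like cells and 69.6 and 79.8 in astrocyte-like cells. Endothelial-like cells had the highest level, 192 CPM (166 to 223) in the wild type and 279.7 (247 to 315) in the knockout, a ratio of 1.45 (1.20 to 1.76). Between 11.2% and 14.04% of the astrocyte-like and oligodendrocyte-like cells held 50% of its UMIs, so it was spread over many cells. None of its ratios in 9 types with enough UMIs reached 1.5-fold.

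Ifi27l2a, its neighbour on chromosome 12, had a different distribution. It was highest in monocyte-like cells, with 1695 CPM (1576 to 1820) and 1607 (1534 to 1683), followed by T cell-like cells with 509.8 and 891 and B cell-like cells with 382 and 589. The T cell-like ratio was 1.75 (1.51 to 2.03) and was at least 1.5-fold in each of 10 other settings. In neutrophil-like cells it was 159 CPM (33 UMIs in 9 of 28 cells) and 548 CPM (287 UMIs in 38 of 88 cells), a ratio of 3.44 (2.40 to 5.10), past 1.5-fold in each of 10 other settings. The neutrophil-like cells with at least 2 Ifi27l2a UMIs had monocyte markers at 32.3 CPM (wild type) and 691 CPM (knockout), below the 4177 and 976 of the other neutrophil-like cells. In microglia-like cells, 11 of 280 wild-type cells held 164 of 175 Ifi27l2a UMIs and 14 of 331 knockout cells 183 of 196. The monocyte markers in those cells were at 2420 and 3089 CPM, against 64.6 and 118 in the other microglia-like cells. Without the 66 and 61 microglia-like cells with more than 3 UMIs of leukocyte markers, Ifi27l2a was 68.2 and 25.8 CPM, a ratio of 0.379 (0.236 to 0.593), where all cells gave 1.21 (0.982 to 1.49). In oligodendrocyte-like cells, 1 wild-type cell held 95 of 149 UMIs. Without the top cell of each library, the log2 ratio there went from −0.67 to 0.08.

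**Figure D2:**
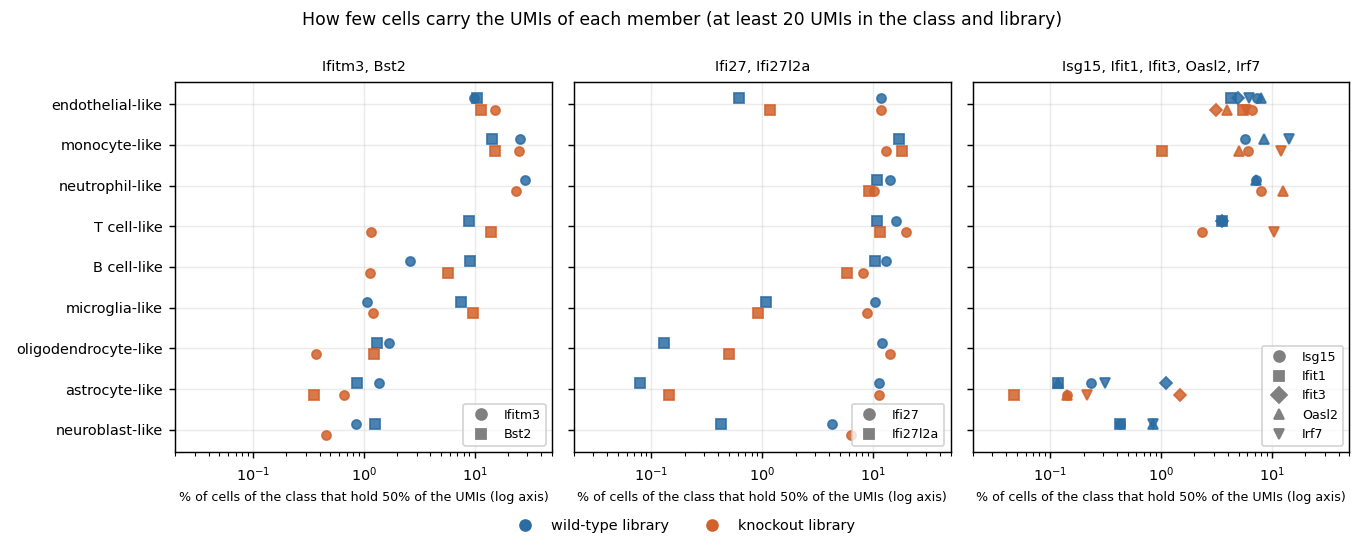
Percentage of the cells of a type that together hold 50% of a member's UMIs (log axis), for members with at least 20 UMIs in the type and library, wild type in blue and knockout in orange. Ifi27 needs 4.24 to 19.8% of cells in all types shown, whereas Isg15, Ifit1 and Oasl2 need at most 0.847% in astrocyte-like and neuroblast-like cells.

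The cytosolic members and Irf7 were highest outside the neural cell types. Isg15 was at 192 CPM (166 to 223) and 231 (202 to 264) in endothelial-like cells of the wild-type and knockout libraries, 116 and 107 in neutrophil-like cells and 83.4 and 83.5 in monocyte-like cells. Ifit1 was at 115 (94.6 to 139) and 155 (131 to 182) in endothelial-like cells, followed by 40.6 and 29.3 in T cell-like cells, whose intervals did not overlap the endothelial ones. Ifit3 was at 56.0 and 55.7 in endothelial-like cells. Oasl2 was at 101 and 199 in neutrophil-like cells, a ratio of 1.96 (1.22 to 3.30) on 21 and 104 UMIs, and at 86.7 and 68.4 in endothelial-like cells. Irf7 was at 153 (119 to 194) and 107 (89.2 to 128) in monocyte-like cells, a ratio of 0.702 (0.517 to 0.959). Outside the described types, Isg15 stood at 625 CPM over 8 wild-type erythroid-like cells and 186 CPM over 4 knockout ones.

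In astrocyte-like cells Isg15, Ifit1, Oasl2 and Irf7 were lower in the knockout library, and Ifit3 did not reach 1.5-fold over the pooled class. Isg15 stood at 5.21 CPM among wild-type and 3.11 among knockout cells (132 and 112 UMIs). Ifit1 was 2.92 and 0.915 (74 and 33 UMIs), a ratio of 0.313 (0.201 to 0.478). Oasl2 was 2.05 and 0.915, a ratio of 0.446 (0.279 to 0.703). Irf7 was 1.18 and 0.638, and Ifit3 was 9.44 and 7.13, a ratio of 0.755 (0.631 to 0.904). These levels came from few cells: the 26 wild-type and 10 knockout cells with an Ifit1 UMI made up all of that value. Ifit3 differed, with UMIs in 144 and 190 astrocyte-like cells, though single cells also held many. Wild-type cells with 14618 and 17295 UMIs held 33 and 23 of Ifit3, and a knockout cell with 15640 UMIs held 32. Of these ratios, that of Ifit1 was past 1.5-fold in each of 11 other settings, and without marker-bearing cells it was 0.393 (0.247 to 0.617). Inside the 2 clusters with at least 50 Ifit3 UMIs, Ifit3 was lower by at least 1.5-fold. Its ratio was 0.370 (0.269 to 0.515) in cluster 0 and 0.559 (0.393 to 0.785) in cluster 1. Clusters below that cut had wide intervals, each including a ratio of 1. Cluster 4 gave 1.18 (0.596 to 2.22, on 34 and 15 UMIs) and cluster 5 gave 0.735 (0.360 to 1.66, on 10 and 38 UMIs). Cluster 6 gave 1.15, cluster 2 gave 0.741 and cluster 14 gave 0.675.

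**Figure D3:**
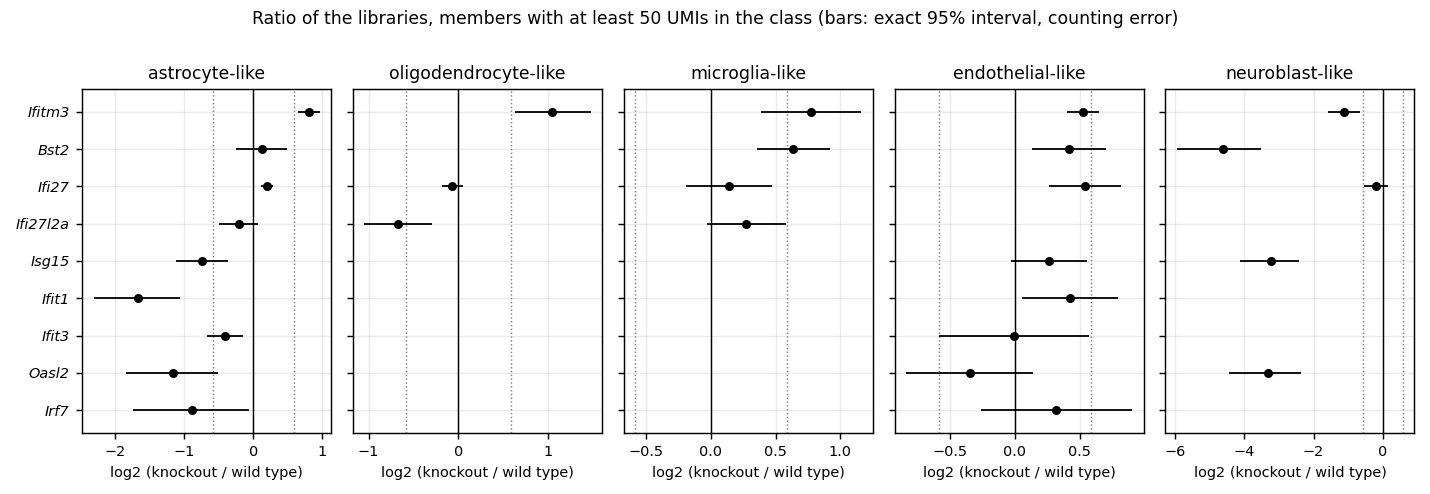
Log2 ratio of knockout over wild-type CPM for each member with at least 50 UMIs in the 5 types with at least 100 cells per library. Bars are exact 95% intervals of counting error, dotted lines mark 1.5-fold, and the horizontal scale differs between panels. In neuroblast-like cells Bst2, Oasl2 and Isg15 lie at −4.60, −3.32 and −3.22, whereas in endothelial-like cells none of 8 members passes 1.5-fold.

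Read by cell type, the members moved in different directions. In astrocyte-like cells all 9 had at least 50 UMIs, of which 1 was higher and 4 lower in the knockout library by 1.5-fold, beside 2.98% and 9.11% of all genes. In oligodendrocyte-like cells 1 of 3 was higher and 1 lower (2.45% and 5.33% of all genes), and in microglia-like cells 2 of 4 were higher and 0 lower (6.61% and 5.94%). In endothelial-like cells 0 of 8 passed in either direction (5.68% and 7.51%). There, 45.7% and 43.5% of cells held more than 3 UMIs of neutrophil and monocyte markers, and without them Ifitm3 was 716 and 1456 CPM, a ratio of 2.03 (1.71 to 2.43). Deeper cells reach that marker count more easily, so leaving them out also took away most UMIs of the endothelial-like class. In neuroblast-like cells 0 of 5 were higher and 4 lower (2.29% and 10.3%). In neutrophil-like cells 3 of 5 were higher and 0 lower (12.5% and 15%), and in monocyte-like cells 0 of 7 passed (8.97% and 12.6%). In T cell-like cells 2 of 5 were higher and 0 lower (5.86% and 12.6%), and in B cell-like cells 2 of 4 were higher and 0 lower (4.53% and 16.9%). The single member with enough UMIs in pericyte-like and smooth muscle-like cells, Ifitm3, was higher (17.6% and 10.3% of all genes). The median log2 ratio of the members was −3.22 in neuroblast-like, −0.41 in astrocyte-like and 0.37 in endothelial-like cells, beside −0.11, −0.11 and −0.02 over all genes. The members had no common direction across types.

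Neuroblast-like cells had the median member ratio farthest from 1 among the 10 types. A few wild-type cells carried most of the Isg15 gap. That of Bst2 was also found without them, but its wild-type UMIs lay in few cells too, as given above. Besides Bst2, Isg15 stood at 27.6 CPM among wild-type and 2.95 among knockout cells (94 and 15 UMIs), a ratio of 0.107 (0.0576 to 0.186). Oasl2 was 19.6 and 1.97 (67 and 10 UMIs), a ratio of 0.100 (0.0459 to 0.196). Ifit1 had 32 and 2 UMIs, Ifit3 17 and 2, Irf7 20 and 3. Ifi27, at 36.7 and 32.0 CPM, was the exception. Without the 4 and 19 cells with more than 3 UMIs of leukocyte markers, Ifitm3 was 29.1 and 3.22 CPM, a ratio of 0.111 (0.0596 to 0.191), and Bst2 34.2 and 0.858.

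To see which cells carried the response, cells with UMIs of at least 3 of 5 inducible members (Isg15, Ifit1, Ifit3, Irf7 and Oasl2) were counted. There were 84 in the wild-type library (1.73% of cells) and 109 in the knockout library (1.57%). Endothelial-like cells had 30 of 162 (18.5%, 12.9 to 25.4%) and 35 of 255 (13.7%, 9.75 to 18.6%), monocyte-like cells 6 of 35 and 18 of 99, T cell-like cells 5 of 56 and 5 of 86, and astrocyte-like cells 9 of 2545 and 7 of 4208. A further 20 and 34 were ungated. Deeper cells pass such a count more easily: after thinning to 2000 UMIs, 10 of 116 and 17 of 169 endothelial-like cells remained, and 3 of 2018 and 3 of 3888 astrocyte-like cells.

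Among neuroblast-like cells there were 5 of 236 in the wild-type library (2.12%, 0.691 to 4.87%) and 0 of 440 in the knockout library (0 to 0.835%), and these intervals overlapped. These 5 cells held 185 of the 230 wild-type UMIs of the inducible members (80.4%). One of them, with 25228 UMIs, had 58 of Isg15, 23 of Ifit1, 22 of Oasl2, 24 of Bst2 and 27 of Ifitm3. Another, with 16669 UMIs, had 0 of Isg15 and of Ifit1, 13 of Ifit3, 16 of Ifi27l2a and 50 of Rsad2, so the cells did not carry the same members. The shallowest, with 4331 UMIs, had 4 of Isg15, 1 of Irf7 and 2 of Oasl2. Their median depth was 25228 UMIs, against 11667 in the other wild-type neuroblast-like cells, and after thinning 1 of 218 passed the count.

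Other genes of the response were used to check these 5 cells, since they took no part in picking them. Of 55 other listed interferon-stimulated genes, 34 had at least 5 UMIs over these cells and the rest of their class together. Of these, 32 were higher in the 5 cells than in the rest, 29 of them by at least 2-fold. Some reached 5 UMIs mainly through the 5 cells, such as Parp14 (27 UMIs there and 1 in the rest) and Oasl1 (4 and 1). For such genes a higher level was nearly fixed by the cut, which was the same for the other types. The median log2 difference was 3.01, beside −0.23 over all genes, of which 3.81% were at least 2-fold higher. Usp18, which shuts down the interferon receptor, stood at 435 against 10.9 CPM. Rsad2, which makes an antiviral nucleotide, stood at 623 against 4.83 CPM. Ifitm1 had no UMI in these cells or the rest. Neuroblast markers summed to 10312 CPM in the 5 cells and 10325 in the rest, and 9 of the 10 endothelial markers and 7 of the 8 monocyte markers were at 0. Rsad2 was named here after its values were seen.

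**Figure D4:**
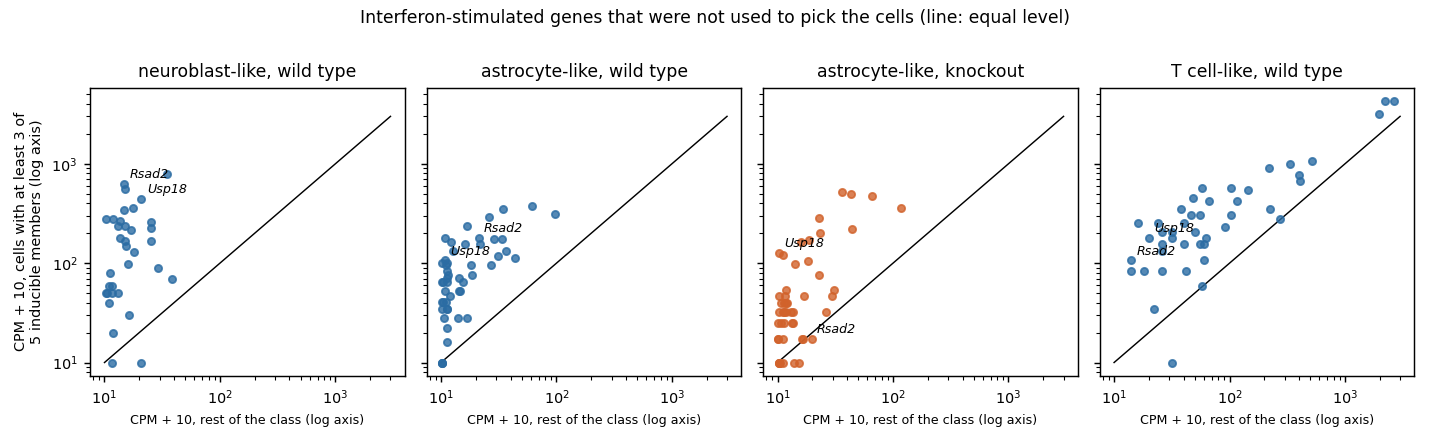
Level of interferon-stimulated genes that took no part in picking the cells (CPM + 10, log axes), in cells with at least 3 of 5 inducible members against the rest of their type, for 5 wild-type neuroblast-like, 9 wild-type and 7 knockout astrocyte-like and 5 wild-type T cell-like cells. Most points lie above the line of equal level, with Usp18 in neuroblast-like cells at 435 against 10.9 CPM before the offset.

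Without these 5 cells, the neuroblast-like difference shrank for some members and stayed for others. Isg15 and Oasl2 were among the genes that picked the cells and no knockout cell was taken out, so their wild-type levels had to drop, whereas Ifitm3 and Bst2 took no part in the picking. Isg15 stood at 3.93 CPM among wild-type and 2.95 among knockout cells, a ratio of 0.751 (0.333 to 1.71). Ifitm3 was 14.5 and 13.2, a ratio of 0.908 (0.618 to 1.34). That knockout level includes the cells with leukocyte markers, without which it was lower, as given above. Both removals together were not tried. Bst2 was 18.4 and 1.38 (61 and 7 UMIs), a ratio of 0.0747 (0.0288 to 0.163), and Oasl2 was 6.65 and 1.97 (22 and 10 UMIs), a ratio of 0.296 (0.125 to 0.651). The 5 cells had held 53 of the wild-type Bst2 UMIs. The 61 that remained also lay in few cells, by the cell count given for Bst2 above.

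The 9 wild-type and 7 knockout astrocyte-like cells that passed the count held 40.0% and 31.7% of the inducible UMIs of their class. One knockout cell with 15640 UMIs had 38 of Isg15, 32 of Ifit3, 12 of Ifit1 and 19 of Bst2, and no Ifitm3. Of the other listed genes with enough UMIs, 43 of 49 (wild type) and 31 of 49 (knockout) were at least 2-fold higher than in the rest. The shares over all genes were 10.1% and 6.93%. The median log2 differences were 2.29 and 1.47, beside −0.05 and −0.07 over all genes. Astrocyte markers were lower in the cells that passed than in the rest, 12677 against 30293 CPM in the wild type. Neutrophil markers stood at 5229 against 241 CPM in the wild-type cells, and fibroblast markers at 3447 against 124 in the knockout ones. Their part in the result was not tested.

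Endothelial-like cells were different again. Their 30 and 35 cells held 68.3% and 64.0% of the inducible UMIs. Of the other listed genes, 36 of 44 and 39 of 45 were higher in these cells. At least 2-fold higher were 2 of 44 and 12 of 45, beside 1.57% and 2.46% of all genes. The median log2 differences were 0.56 and 0.68, beside −0.040 and −0.015 over all genes. Ifitm3 was at 958 against 996 CPM in the wild type and 1895 against 1293 in the knockout. Without these cells, Isg15 in the remaining endothelial-like cells was 108 and 107 CPM. Ifit1 was then 34.9 and 79.3 CPM, a ratio of 2.28 (1.36 to 3.94), on 21 and 60 UMIs. Isg15 and Ifit1 were among the genes that picked the removed cells, so their remaining levels depended on the picking. The removed cells had held 88 wild-type and 87 knockout Ifit1 UMIs, at median depths of 8781.5 and 4719 UMIs. For that reason this ratio cannot tell whether the remaining cells differed between libraries. In T cell-like cells, 32 of 44 other genes were at least 2-fold higher in the 5 wild-type cells, beside 11.4% of all genes. The median log2 difference was 1.93, beside −0.15 over all genes, and Bst2 was at 876 against 89.9 CPM.

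The interferons themselves were almost absent. Of 21 ligand genes, 18 had 0 UMIs in both libraries, among them Ifnb1 and all listed alpha interferons, at the depth given above. Ifng, the type II interferon, had 62 UMIs in 21 wild-type cells and 51 in 30 knockout cells. NK cell-like cells held 35 and 23 of these and T cell-like cells 19 and 20. Ifnk had 3 and 1 UMIs and Ifnz 1 and 0.

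Of a list of 107 pathway genes apart from the members, 102 were found by symbol in the files. It was split into ligands, receptors, signal transducers, nucleic acid sensors, feedback inhibitors and other effectors. In neuroblast-like cells, 30 had at least 50 UMIs, of which 3 were higher and 14 lower in the knockout library, or 10% and 46.7%, beside 2.29% and 10.3% of all genes (median log2 ratio −0.55). The receptor genes Ifnar1 (41.6 and 41.3 CPM), Ifnar2 (30.5 and 32.0) and Ifngr2 (16.4 and 16.3) lay within counting error of each other. Ifngr1 passed 1.5-fold, at 7.04 and 10.6, but its ratio of 1.51 (0.917 to 2.55) was also within counting error of no difference. Of the transducers 4 of 8 were lower, and of the effectors 7 of 13 were lower and 2 higher, the class I antigen-presenting genes H2-K1 (6.74 and 13.0) and H2-D1 (21.1 and 32.2). H2-D1 stood at 1456 and 1802 CPM in neutrophil-like cells and 2346 and 2124 in monocyte-like cells. More knockout than wild-type neuroblast-like cells bore leukocyte markers, as given above, and their part in these 2 differences was not tested. Usp18 was 23.5 and 0.786 CPM, Gbp7, an interferon-induced GTPase, 21.1 and 0.393 (72 and 2 UMIs, a ratio of 0.0186, 0.00221 to 0.0698), Gbp3 14.7 and 1.38 and Rtp4 12.9 and 1.57. Irf9, a transcription factor of the pathway picked after its values were seen, was 22.0 and 5.11, a ratio of 0.232 (0.143 to 0.367).

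In astrocyte-like cells, 61 had enough UMIs, with 4 higher and 4 lower, or 6.56% each way, beside 2.98% and 9.11% of all genes. Usp18 was 1.38 and 0.693 CPM, in the same direction as Ifit1 and Oasl2. Ifitm1, a relative of Ifitm3, was 1.34 and 13.8 CPM (34 and 496 UMIs), a ratio of 10.2 (7.23 to 14.96), and Ifitm6 1.38 and 3.86. Both genes were abundant in neutrophil-like cells, and the 10 neutrophil markers summed to 274 and 417 CPM in astrocyte-like cells. Without marker-bearing cells Ifitm1 was 0.661 and 2.69 CPM, a ratio of 4.07 (2.38 to 7.42), on 16 and 93 UMIs, and Ifitm6 0.785 and 1.19, a ratio of 1.51 (0.858 to 2.76). With all cells kept, Ifitm1 was also higher in endothelial-like cells (21.1 and 163 CPM), monocyte-like cells (4.51 and 177 CPM, on 2 and 199 UMIs, a ratio of 39.2, 10.7 to 326) and neutrophil-like cells (1639 and 5197 CPM). In endothelial-like cells without marker-bearing cells it was 16.6 and 19.8 CPM, on 4 and 7 UMIs. In the neutrophil-like class 8 of 26 pathway genes were higher (30.8%, beside 12.5% of all genes) and 0 lower (15%). In endothelial-like cells 6 of 49 were higher and 2 lower, 12.2% and 4.08% beside 5.68% and 7.51%, among them Usp18 at 26.4 and 56.8 CPM, Socs3, a cytokine-signalling inhibitor, at 20.1 and 57.8, and Ifi35 at 69.8 and 124. Without marker-bearing cells the Usp18 ratio was 1.19 (0.465 to 3.27), on 8 and 14 UMIs. That of Socs3 was 1.16 (0.423 to 3.49), on 7 and 12 UMIs. That of Ifi35 was 4.50 (2.13 to 10.96), on 8 and 53 UMIs.

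In microglia-like cells 2 of 50 were higher and 3 lower, 4% and 6% beside 6.61% and 5.94% of all genes, shares near those of all genes. Socs3 was 191 and 504 CPM, a ratio of 2.64 (2.31 to 3.02), and Mavs, the adaptor of the RNA sensors, 11.6 and 23.8, while Herc6 was 52.0 and 29.1 and Jak2 28.2 and 15.9. Monocyte-like cells had 3 of 52 higher and 10 lower, 5.77% and 19.2% beside 8.97% and 12.6%, with Oas1a at 72.1 and 35.5 CPM, Oas3 at 18.0 and 40.0 and the RNA sensor Tlr7 at 96.9 and 43.5. T cell-like cells had 2 of 36 higher and 7 lower, 5.56% and 19.4% beside 5.86% and 12.6%, with Ifngr1 at 229 and 370.4 CPM and Herc6 at 68.3 and 22.4. B cell-like cells had 1 of 35 higher and 6 lower, 2.86% and 17.1% beside 4.53% and 16.9%, shares near those of all genes. Among them were Socs3 at 99.0 and 21.4 CPM, the RNA sensor Ddx58 at 56.4 and 27.9, Irf9 at 70.1 and 40.7 and Irf1 at 74.6 and 45.0. In oligodendrocyte-like cells 1 of 24 was higher and 3 lower, 4.17% and 12.5% beside 2.45% and 5.33%, with Rsad2 at 4.61 and 1.34, Ifitm2 at 5.16 and 10.8 (3.91 and 3.36 without marker-bearing cells), B2m at 46.0 and 30.2 and Jak2 at 55.5 and 33.0. In pericyte-like and smooth muscle-like cells 1 of 4 was higher, H2-D1 at 180.3 and 309 CPM (25%, beside 17.6% of all genes).

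The genes most like each member were ranked by Pearson correlation of log2(CPM + 10) over 14 points, the 7 types with at least 50 cells in each of the 2 libraries, among 13094 genes. The points share their libraries and 7 of them are the same types again, so the values are descriptions. Ifitm3 was most like Ifitm2 (r = 0.97) and Ifit3 like its near-copy Ifit3b (0.96). Isg15 and Ifit1 were each other's closest gene (0.97). Bst2 was followed by Parp14 (0.97), Lgals9 (0.96) and Dtx3l (0.96), and Ifi27l2a by Emp3 (0.99). Irf7 was most like Clec2d (0.97), Oasl2 like Tiam1 (0.95) and Ifi27 like Crim1 (0.91), the lowest of the 9.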

How the data were processed

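Dissociated cortex cells were profiled by 3′ single-cell RNA sequencing, with 1 library per genotype. Per the submitters' processing notes, Cell Ranger 4.0.0, Seurat 3.0, R 4.0.3 and the mm10 build were used. The deposited matrices give unnormalized UMI counts, 1 value for each gene in each barcode. A barcode was kept if it had 500 or more detected genes and no more than 20% of its UMIs from mitochondrial genes. The filter took out 27.9% (wild type) and 18.5% (knockout). The automatic Scrublet threshold called 0 and 4 doublets, so the highest scores were removed at 0.8% per 1000 barcodes (295 and 549 cells), a rate chosen after seeing those calls. A cell took a type when it had at least 3 and at least 30% of its markers and led the next type by 15 percentage points. Leiden clusters gave the same name for 95.4% of gated cells. The work ran in Python 3.11.15 with leidenalg 0.10.2, matplotlib 3.10.9, numpy 2.4.6, pandas 2.3.3, scanpy 1.11.5, scipy 1.17.1 and scikit-learn 1.9.0.

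CPM intervals are exact Poisson, ratio intervals exact conditional binomial and shares Clopper-Pearson. The ratio code was tested on simulated data. A ratio was described where a gene had at least 50 UMIs over both libraries. A count of 0 allows up to 3 UMIs or cells. All 9 members are named. Of the pathway list, up to 4 genes per type with the largest ratio in either direction are named, besides those said to be picked later, and 1 gene that this rule names is not reported here. The members, lists and gate thresholds were chosen with earlier results of these data known, and 2 of the alternatives were added after seeing the data. Deposited gene identifiers matched GENCODE M21 for 99.6%.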

Additional observations from a re-analysis of the deposited data

Results flagged for a closer look

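These are log2 ratios of knockout over wild type, each past 1.5-fold, for members whose ratios pointed in opposite directions in different cell types. The difference between types was not tested, and each type is 1 pool per genotype. Ifitm3 stood at 0.80 in astrocyte-like, 1.04 in oligodendrocyte-like, 0.77 in microglia-like, 0.67 in pericyte-like and smooth muscle-like, 1.23 in neutrophil-like, 2.13 in T cell-like and 1.96 in B cell-like cells, against −1.11 in neuroblast-like cells. Bst2 stood at 0.64 in microglia-like and −4.60 in neuroblast-like cells. Ifi27l2a stood at 1.78 in neutrophil-like, 0.80 in T cell-like and 0.62 in B cell-like cells, against −0.67 in oligodendrocyte-like cells. Oasl2 stood at 0.97 in neutrophil-like cells, against −1.17 in astrocyte-like and −3.32 in neuroblast-like cells.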

How the results depend on the processing

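No paired analysis was possible because each genotype has 1 library. Values are log2 ratios of knockout over wild type. The 9 members summed gave 0.17 in astrocyte-like, −0.04 in oligodendrocyte-like, 0.42 in microglia-like, 0.44 in endothelial-like and −1.66 in neuroblast-like cells. Of 55 alternative values of such sums over the described types, 33 stayed within the counting interval and 22 moved out of it. In astrocyte-like cells the sum was 0.020 with types from clusters, 0.28 scaled by the median ratio of all genes, −0.38 with each cell weighted the same, 0.038 thinned and 0.093 without cells bearing leukocyte markers. In oligodendrocyte-like cells it was −0.15 with each cell weighted the same and −0.16 without marker-bearing cells. In microglia-like cells it was 0.26 with no filter on cells, 0.26 with doublets kept, 0.21 with clusters, 0.62 without cells with at least 3 inducible members and 0.17 without marker-bearing cells. In endothelial-like cells it was 0.53 with each cell weighted the same, 0.56 thinned, 0.32 without the cells with at least 3 inducible members and 0.73 without marker-bearing cells. In neuroblast-like cells it was −2.19 with clusters, −2.04 with the stricter gate, −1.89 thinned, −1.34 without the top cell, −0.55 without the cells with at least 3 inducible members and −1.995 without marker-bearing cells.

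Of 537 values for single members, 447 stayed, 81 moved and 9 reversed. Ifitm3 reversed to −0.31 in astrocyte-like and −0.067 in oligodendrocyte-like cells with each cell weighted the same, and to −0.13 in oligodendrocyte-like cells without marker-bearing cells. In T cell-like cells it was −0.56 with the stricter gate and −0.23 without the cells with at least 3 inducible members. In B cell-like cells it was −0.20 with clusters and −0.50 with the stricter gate. Ifi27l2a was 0.083 in oligodendrocyte-like cells without the top cell and −0.046 in B cell-like cells with clusters. Beyond what each alternative leaves out, the cause was not tested. Of 21 member ratios past 1.5-fold, 7 were past it in each alternative run: Bst2 in microglia-like (0.60 to 0.82) and neuroblast-like cells (−5.32 to −3.74), Ifi27l2a in T cell-like (0.62 to 1.16) and neutrophil-like cells (0.70 to 1.89), Ifit1 in astrocyte-like cells (−2.35 to −1.29), Ifitm3 in neutrophil-like cells (0.79 to 1.46) and Oasl2 in neuroblast-like cells (−4.25 to −1.76). Types with few cells, such as 28 wild-type neutrophil-like cells, limit the precision.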

Other observations

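Members were also counted in cells that no described type holds. Isg15 stood at 49.3 CPM in 576 ungated wild-type cells and 70.3 CPM in 378 ungated knockout cells, whose median depths were 1454 and 6991 UMIs. In those ungated cells, the 20 wild-type and 34 knockout cells with at least 3 inducible members held 70.9% and 72.5% of the inducible UMIs. Their median depths were 26987 and 14447 UMIs, against 1432.5 and 6102 in the other ungated cells. In ependymal-like cells, 2 of 19 wild-type and 1 of 19 knockout cells passed that count. In fibroblast-like cells, 0 of 10 wild-type and 2 of 37 knockout cells passed it.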
